A study of Mus musculus with 4 samples.

Results

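The enzymes and transporters that take glucose through glycolysis, the pentose phosphate pathway and the tricarboxylic acid (TCA) cycle were followed in mouse regulatory T cells, a CD4+ lineage that holds immune responses in check. The set comprised 50 genes listed by name from these pathways, and all 50 were found by gene identifier among the 50600 genes of the count tables. Glycolysis splits glucose into pyruvate, which is either reduced to lactate and exported or carried into mitochondria, where the pyruvate dehydrogenase complex feeds it to the TCA cycle. The pentose phosphate pathway branches off after the first phosphorylation and supplies NADPH and ribose. Many of these steps are served by several genes, and T cells are known to raise glucose uptake and glycolysis when activated, while regulatory T cells are also known for relying on mitochondrial oxidation.

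RNA was sequenced as paired-end fragments in 4 libraries of primary cells, all of strain C57BL/6NJ and all in the same group, without any treated or control arm. The labels number the libraries as biological replicates 1 to 4, give them one donor identifier and record no sex, and the linked growth protocol concerns CD4+ T cell differentiation. Total RNA-seq is the assay name given, yet the linked library protocol is titled for polyA+ RNA. The words activated and 24h appear only in output names within the headers, and the labels themselves do not repeat them. The labels do not state that the libraries came from separate animals or cultures, so every p-value below measures only the spread between these libraries. Sex-linked genes, given below, differ between replicates 1 and 2 and replicates 3 and 4, so the libraries are not all repeats of the same source. How much of the spread is technical cannot be told.

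The libraries held 38590127, 44357436, 48312918 and 93035969 counted fragments in replicates 1 to 4. All 6 regulatory T cell markers, Foxp3 among them, had a mean of at least 1 TPM (a transcript abundance, fragments divided by gene length and scaled to the same total in each library), and their summed level lay between 1380.1 and 1625 TPM. Il2ra, at a mean of 702 TPM, and Tnfrsf18, at 401 TPM, were the highest of them, and Foxp3 had 109 TPM. Of the 6, 5 reached 10 TPM, while Ikzf2 stood at 4.32 TPM. All 8 general T cell markers exceeded 10 TPM. Summed levels of CD8 T cell markers lay between 17.4 and 26.0 TPM, those of B cells between 3.88 and 8.51 TPM and those of macrophages and monocytes between 5.43 and 8.93 TPM, and all 4 neutrophil markers had 0 fragments. In RNA from a bulk sample, fewer cells of a type and less RNA per cell cannot be told apart. Replicates 1 and 2 stood apart from replicates 3 and 4 in sex-linked genes, with Xist at 100.4 and 88.7 TPM against 0.716 and 0.603 TPM, and Ddx3y at 0.159 and 0.101 TPM against 46.1 and 40.6 TPM. In replicate 1 the rRNA-related locus Gm42418 took 35490.5 TPM, against 1324 to 3197 TPM in the others, which lowers the TPM of every other gene of that library.

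Lactate dehydrogenase has subunits encoded by Ldha and Ldhb. Promoters of this pair are shown because Ldha was the highest gene of the set, while Ldhb stood at 57.0 TPM. No link between these sequences and the levels was tested. Each line gives the 250 bases before a gene's start, 5′ to 3′ on the gene's strand, from RefSeq on GRCm38.p6 (mm10). Capitals mark matches to ACGTG or GCGTG on either strand, the short core recognised by hypoxia-inducible factors, including where it lies inside CACGTG, the E-box bound by Myc.

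Ldha: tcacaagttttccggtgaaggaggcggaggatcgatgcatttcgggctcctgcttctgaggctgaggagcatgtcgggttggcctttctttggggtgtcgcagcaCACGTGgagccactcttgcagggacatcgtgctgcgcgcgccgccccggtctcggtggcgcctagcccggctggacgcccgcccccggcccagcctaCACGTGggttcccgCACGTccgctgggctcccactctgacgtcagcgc
Ldhb: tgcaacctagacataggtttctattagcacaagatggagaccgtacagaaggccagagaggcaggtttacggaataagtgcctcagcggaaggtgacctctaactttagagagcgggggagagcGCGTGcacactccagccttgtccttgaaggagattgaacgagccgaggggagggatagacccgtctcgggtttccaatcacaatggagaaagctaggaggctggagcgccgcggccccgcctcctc

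The Ldha window, chr7:46845554-46845803 on the plus strand, held 5 core matches, of which each of its 2 CACGTG motifs counts as 1 on both strands, and 25 CpG dinucleotides. It lies inside the span of the Ldha gene in the count tables, which begins at an upstream exon. The bases just after the start site at the end of this window were not found letter for letter in a GENCODE transcript of Ldha. Those just after the Ldhb start site were found in a GENCODE transcript of Ldhb. RefSeq gives Ldha a second start, whose window, chr7:46846832-46847081, is not printed and held 1 core match, 0 CACGTG motifs and 9 CpG dinucleotides. The Ldhb window, chr6:142507958-142508207 on the minus strand, ends at the gene's annotated start and held 1 core match, 0 CACGTG motifs and 14 CpG dinucleotides. Promoter windows were found for 48 of the 50 genes, and Idh3a and Slc2a3 were not in the table. Of the 69 windows of those genes, 52 (75.4%) held the core on either strand, beside 38.6% of all 32851 windows and 59.6% of the 7996 windows of protein-coding genes with at least 10 TPM. CACGTG was found in 8 of the 69 windows (11.6%), beside 6.02% of all windows and 9.09% of those of genes with at least 10 TPM. A gene with several starts counts once per window, and its windows can overlap, so these shares do not rest on independent windows. Ogdh windows beginning at chr11:6291920, chr11:6292308 and chr11:6292329 each held 1 CACGTG motif, and the windows at 6292308 and 6292329 share most of their bases. Each Ogdh window also held the core. The median number of CpG dinucleotides was 15 per enzyme window, 6 over all windows and 17 over those of genes with at least 10 TPM. A match is a string of letters and not an occupied site.

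The pathway as a whole was highly expressed. Of the 50 genes, 49 had a mean of at least 1 TPM, against 47.7% of the 21764 protein-coding genes, 45 reached 10 TPM, against 36.2%, and 29 reached 100 TPM, against 9.43%. The median gene of the set stood at 114 TPM, where the median over the 10383 protein-coding genes with at least 1 TPM was 31.0 TPM. Among those expressed protein-coding genes 31 of the 50 fell in the top quartile and 19 in the top decile. Together the 50 genes took 1.38% ± 0.0698 of all TPM and 1.67% ± 0.0474 of all counted fragments (SD, n = 4). Ldha led with 2802 ± 162 TPM, followed by Pkm, Gapdh and Aldoa, all above 1000 TPM, and Hk3 closed the order at 0.182 ± 0.184 TPM.

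**Figure D1:**
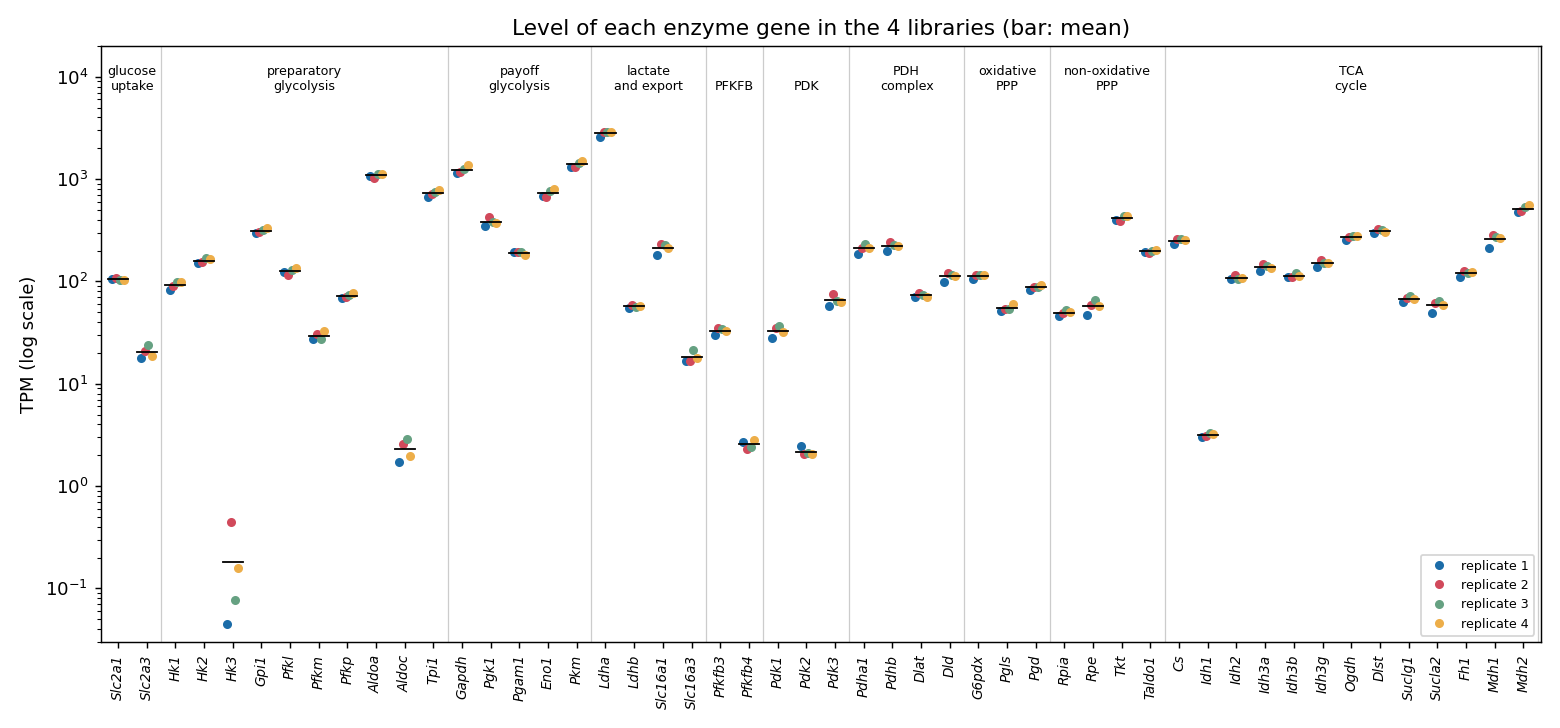
Level of each of the 50 enzyme genes in TPM on a log axis, with 1 point per library and the genes grouped by their place in the pathway. Points of a gene lie close together at every level except for Hk3, and the genes range from 0.182 TPM (Hk3) to 2802 TPM (Ldha) in the mean.

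At the cell surface, glucose enters through facilitative transporters. Slc2a1, which encodes GLUT1, stood at 104, 107, 104 and 104 TPM in replicates 1 to 4. Slc2a3, which encodes the high-affinity GLUT3, stood at 17.8, 20.7, 23.8 and 18.6 TPM. Slc2a1 was therefore the higher of the pair in every library, with a mean log2 ratio of 2.38 ± 0.18 (SD, n = 4). Per principal transcript, the main isoform annotated for each gene, the ratio was 1.62. With 4 libraries, an exact two-sided permutation test that flips the sign of a ratio in each library cannot give a p below 0.125, so no ratio between genes reported here can pass 0.05.

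Hexokinases trap glucose by phosphorylation. Hk2, the inducible hexokinase, stood at 152, 153, 169 and 165 TPM. Hk1, the broadly expressed hexokinase, stood at 81.7, 89.8, 99.5 and 98.3 TPM. Hk2 was thus above Hk1 in each library when fragments were divided by all annotated exon bases, with a log2 ratio of 0.79 ± 0.07 (SD, n = 4). With the principal transcript as the length the order turned, to a log2 ratio of -0.24, and the share of Hk2 among hexokinase transcripts moved from 63.3% to 45.8%; per coding length the log2 ratio was 0.32. Which of these hexokinases had more transcripts is therefore set by the choice of length. Hk3 had 2, 22, 4 and 16 fragments in replicates 1 to 4, so it was at the edge of detection in all of them, and the next gene on chromosome 10, Hkdc1, lies 3.23 kb from Hk1.

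Gpi1, which converts glucose 6-phosphate to fructose 6-phosphate, stood at 297, 302, 321 and 335 TPM. Phosphofructokinase, the committed step of glycolysis, drew on all 3 subunit genes. Pfkl, the liver-type subunit, had 126 ± 8.24 TPM, Pfkp, the platelet-type subunit, had 72.5 ± 3.89 TPM, and Pfkm, the muscle-type subunit, had 29.6 ± 2.71 TPM (SD, n = 4). The order Pfkl, Pfkp, Pfkm was the same in every library. Their shares of the step were 55.2%, 31.8% and 12.98%, and 53.6%, 39.1% and 7.24% per principal transcript, so that this order was the same with both lengths.

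Aldolase came almost entirely from Aldoa, the gene of muscle and most other tissues, at 1074, 1026, 1126 and 1133 TPM. Aldoc, the brain-type gene, stood at 1.72, 2.56, 2.90 and 1.97 TPM. Aldoa held 99.8% of aldolase transcripts, with a log2 ratio over Aldoc of 8.92 ± 0.35 (SD, n = 4) that was 10.01 per principal transcript. Tpi1, which interconverts the triose phosphates, stood at 666, 713, 744 and 774 TPM and closed the preparatory phase of glycolysis, which summed to 2610.0 ± 132 TPM over 10 genes.

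The payoff phase, where ATP and pyruvate are made, summed to 3925 ± 255 TPM over only 5 genes. Gapdh, which oxidises glyceraldehyde 3-phosphate and makes NADH, stood at 1144, 1160.1, 1252 and 1368 TPM. Pgk1, which makes the first ATP of this phase, stood at 349, 427, 383 and 375 TPM. Pgam1, the phosphoglycerate mutase, stood at 194, 194, 193 and 181.8 TPM. Gapdh was highest in replicate 4, Pgk1 in replicate 2, and Pgam1 was lowest in replicate 4. Eno1, the main enolase, stood at 678, 667, 766 and 808 TPM. Pkm, whose spliced forms give the pyruvate kinases M1 and M2 that a count per gene cannot separate, stood at 1322, 1301, 1427 and 1507 TPM. Eno1 and Pkm shared one order of libraries, lowest in replicate 2 and highest in replicate 4.

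The payoff sum exceeded the preparatory sum in every library, by 1.503-fold, a log2 ratio of 0.59 ± 0.03 (SD, n = 4) that was 0.73 per principal transcript. Within the payoff phase Pgam1 stood lowest in every library. Enolase was shared with Eno3, the muscle-type gene, which is not among the 50 and stood at 336 ± 36.0 TPM, or 31.4% of enolase transcripts per exon union and 16.1% per principal transcript. Of the 100-base windows of the principal transcript, 59.0% in Eno1 and 0% in Eno3 occur in transcripts of other genes. Fragments that mapped to more than one place were not counted, so the share of Eno3 can be too high.

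Pyruvate is reduced to lactate by lactate dehydrogenase, which regenerates NAD+. Ldha, the subunit favouring this direction, stood at 2560.3, 2897, 2868 and 2884 TPM. Ldhb, the subunit prominent in heart, stood at 55.1, 59.3, 55.6 and 57.9 TPM. Ldha exceeded Ldhb by a mean of 49.1-fold in these libraries, a log2 ratio of 5.62 ± 0.06 (SD, n = 4). The log2 ratio was 6.26 per principal transcript, a 76.5-fold difference, and 6.70 per coding length. Ldha held 98.0% of the transcripts of this step and 90.7% of the summed level of lactate production and export. Ldha was lowest in replicate 1, the library with the high Gm42418 level, while on the TMM scale it stood at 816, 857, 828 and 858 FPKM in replicates 1 to 4. A link between the Gm42418 level and that of Ldha was not tested.

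Lactate leaves through monocarboxylate transporters. Slc16a1, which encodes MCT1, stood at 183, 229.6, 229 and 209.7 TPM. Slc16a3, which encodes MCT4, the exporter of strongly glycolytic cells, stood at 16.5, 16.7, 21.1 and 17.9 TPM. Slc16a1 was the higher in every library, with a log2 ratio of 3.56, and Bsg, the chaperone both need at the membrane, stood at 518 ± 29.2 TPM (SD, n = 4). A further family member, Slc16a6, had 49.7 ± 2.68 TPM, above Slc16a3.

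**Figure D2:**
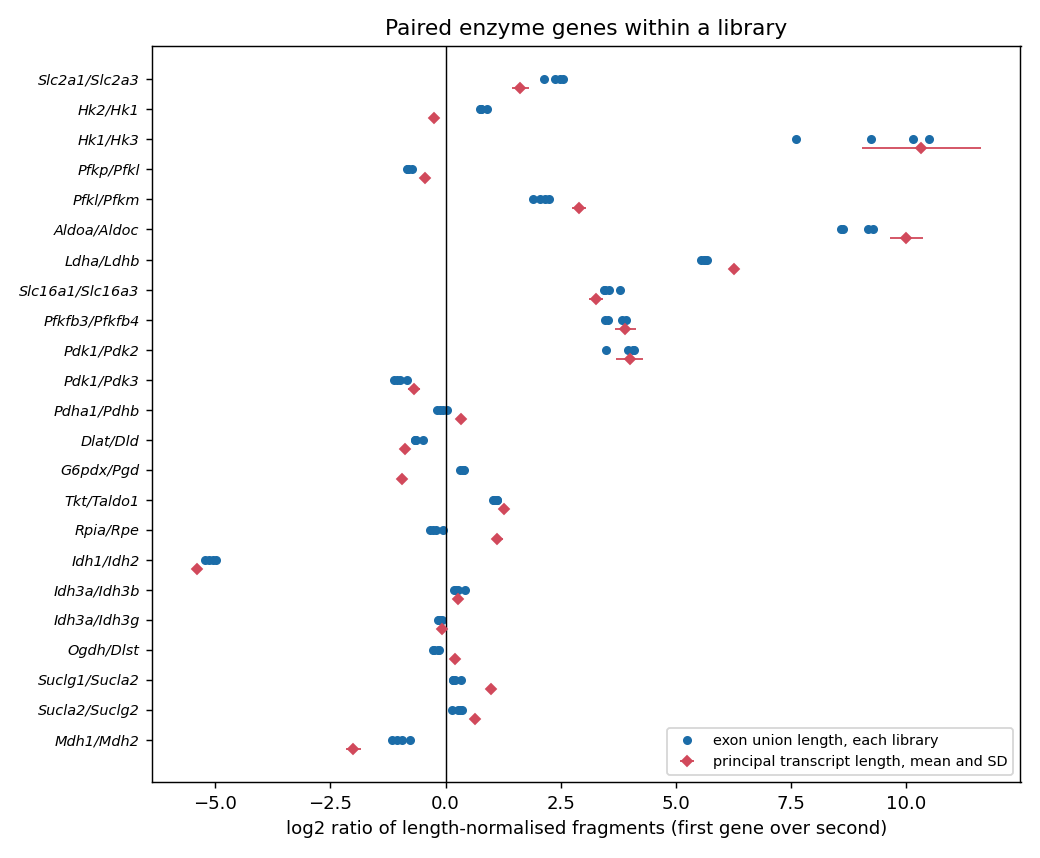
Log2 ratio of length-normalised fragments for 23 pairs of genes that share a step or complex, with points for the libraries on the exon union length and a separate mark for the mean on the principal transcript length. Values right of 0 mean that the first gene is higher; Hk2/Hk1, G6pdx/Pgd, Rpia/Rpe, Pdha1/Pdhb and Ogdh/Dlst change side with the length.

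Of the 23 pairs compared, the first gene was higher in all libraries in 14, the second in all libraries in 8, and the order differed between libraries in 1. The SD of a log2 ratio over the libraries had a median of 0.099 and reached 1.30 for Hk1/Hk3, which rests on the few fragments of Hk3. The order turned in 5 pairs when the principal transcript replaced the exon union as the length.

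Bifunctional kinases tune phosphofructokinase through fructose 2,6-bisphosphate. Pfkfb3, the form with strong kinase activity, stood at 29.9, 35.3, 34.2 and 32.5 TPM. Pfkfb4 stood at 2.71, 2.32, 2.40 and 2.83 TPM. Pfkfb3 made up 76.7% of the transcripts of this step once the related Pfkfb1 and Pfkfb2 were counted, and the pair had a log2 ratio of 3.68. In the mean, Pfkfb3 was close to Pfkm, the lowest of the phosphofructokinase genes.

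Pyruvate dehydrogenase kinases shut the entry of pyruvate into the TCA cycle. Pdk3 stood at 57.6, 75.3, 64.7 and 62.8 TPM. Pdk1, a target of hypoxia signalling, stood at 27.8, 34.7, 36.5 and 31.9 TPM, and Pdk2 at 2.48, 2.05, 2.12 and 2.04 TPM. The order Pdk3, Pdk1, Pdk2 was the same in every library, with Pdk3 at 65.1% of the kinase transcripts. Between Pdk1 and Pdk3 the order turned with the length, from a log2 ratio of -0.99 on the exon union to 0.54 per coding length and 0.61 with no length. The complex they act on summed to 618 ± 45.1 TPM, beside 99.997 ± 10.2 TPM for the kinases (SD, n = 4). Its E1 subunits were near equal on the exon union, with Pdha1 at 184, 214, 231 and 213 TPM and Pdhb at 200.05, 242, 227 and 221 TPM. Their log2 ratio of -0.08 ± 0.09 (SD, n = 4) did not exceed its spread between libraries, but became 0.34 per principal transcript, 1.13 per coding length and 1.25 with no length, so that Pdha1 was then the higher. Dlat, the E2 core, had 73.2 ± 2.78 TPM, and Dld, the E3 subunit shared with the 2-oxoglutarate dehydrogenase complex, had 112 ± 8.95 TPM.

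In the oxidative pentose phosphate branch, which makes NADPH, G6pdx, the rate-limiting dehydrogenase, stood at 106, 116, 115 and 116 TPM. Pgd, the second dehydrogenase, stood at 81.7, 88.7, 88.0 and 93.2 TPM. Pgls, the lactonase between them, stood at 51.5, 53.4, 54.1 and 60.5 TPM. On the exon union G6pdx was the highest of these genes and Pgls the lowest in every library. Per principal transcript the order was another: Pgd had 186 ± 4.61 TPM, Pgls 168 ± 9.20 TPM and G6pdx 95.8 ± 0.582 TPM, and the log2 ratio of G6pdx to Pgd went from 0.37 ± 0.03 to -0.95 (SD, n = 4). The exons annotated for Pgls covered 4.22 times the length of its principal transcript and those for Pgd 2.91 times, so the level printed for them is the lower one.

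The non-oxidative branch, which makes ribose 5-phosphate and returns carbon to glycolysis, summed to 720 ± 35.1 TPM and exceeded the oxidative branch by 2.81-fold, a log2 ratio of 1.49 ± 0.05 (SD, n = 4) that was 1.18 per principal transcript. Tkt, the transketolase, stood at 399.9, 393, 432 and 441 TPM, and Taldo1, the transaldolase, at 195, 189.6, 198 and 204 TPM. Tkt was above Taldo1 in all libraries, with a log2 ratio of 1.08. Rpia, the ribose phosphate isomerase, had 49.3 ± 2.67 TPM and Rpe, the epimerase, 57.5 ± 7.57 TPM, and their log2 ratio of -0.21 ± 0.12 (SD, n = 4) became 1.13 per principal transcript.

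Of the TCA cycle, 13 genes were in the set, and they summed to 2361 ± 122 TPM. The succinate dehydrogenase genes, given below, are not among them, while the cytosolic Idh1 and Mdh1 are. Cs, the citrate synthase that opens the cycle, stood at 229.9, 262, 258 and 251 TPM. Mitochondrial Idh2, an NADP-dependent dehydrogenase, stood at 105, 116, 105 and 107 TPM, and its cytosolic counterpart Idh1 at 2.98, 3.07, 3.29 and 3.21 TPM. Idh1 was thus near the bottom of the set, and Idh2 held 97.2% of the transcripts of the pair, with a log2 ratio of Idh1 to Idh2 of -5.10 ± 0.10 (SD, n = 4). The subunits of the NAD-dependent enzyme were close to each other, with Idh3g at 150.2 ± 9.17 TPM, Idh3a at 138 ± 9.36 TPM and Idh3b at 114 ± 5.09 TPM. They made up 37.4%, 34.3% and 28.3% of that enzyme's transcripts, and Idh3a was above Idh3g per coding length, with a log2 ratio of 0.89 in place of -0.13.

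Ogdh and Dlst, the first subunits of the 2-oxoglutarate dehydrogenase complex, had 270.4 ± 11.6 and 311 ± 10.99 TPM. Dlst was the higher per exon union and Ogdh the higher per principal transcript, where the log2 ratio of Ogdh to Dlst was 0.20 in place of -0.20. Succinyl-CoA ligase had 67.8 ± 4.08 TPM of Suclg1, its shared subunit, and 58.6 ± 6.46 TPM of Sucla2, the ADP-forming subunit, beside 48.6 ± 3.00 TPM of the GDP-forming Suclg2. Fh1, the fumarase, had 120.2 ± 7.01 TPM. Mdh2, the mitochondrial malate dehydrogenase, stood at 476, 483, 528 and 556 TPM and was the highest gene of the cycle, above the cytosolic Mdh1 at 213, 282, 274 and 268 TPM. Mdh2 held 66.4% of malate dehydrogenase transcripts, and 80.0% per principal transcript.

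Set side by side, the genes of glycolysis and lactate dehydrogenase summed to 9394 ± 498 TPM over 17 genes and exceeded the TCA sum in all 4 libraries, by a mean of 3.98-fold or a log2 ratio of 1.99 ± 0.05 (SD, n = 4). Per principal transcript the log2 ratio was 2.24. Ldha alone made up 29.8% of the first sum and exceeded the sum of the 13 TCA genes of the set in each library. The TCA sum does not cover the whole cycle, and it includes the cytosolic Idh1 and Mdh1. Left out are, among others, Sdhd (484 TPM), Sdha (356 TPM), Sdhb (209 TPM) and Sdhc (97.8 TPM). Neither the fold nor the comparison with Ldha was computed with such genes added, so both hold for the listed genes only. All these values are RNA levels and say nothing of flux.

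**Figure D3:**
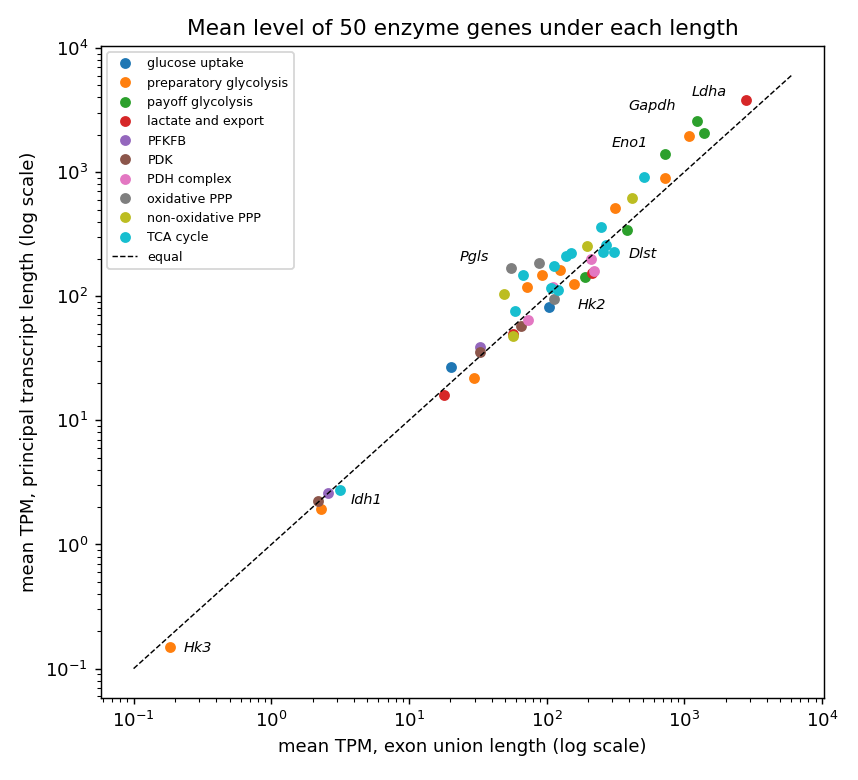
Mean level of the 50 genes with the exon union as length (horizontal, TPM, log scale) against the mean with the principal transcript as length (vertical, TPM, log scale), with colours for the place in the pathway and a dashed line where both are equal. Gapdh, Eno1 and Pgls lie above the line and Hk2 and Dlst below it.

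The annotated exon length therefore bears on each level printed here. In 16 of the 50 genes the exon union was more than 2 times the principal transcript, up to 4.22 times for Pgls, 3.04 times for Suclg1 and 2.93 times for Rpia, while Slc16a1 and Dlst were at 1.00. With the principal transcript Pgls went from rank 39 to rank 21 among the 50, Pgd from 31 to 19, Hk2 from 20 to 28 and Pgam1 from 19 to 27. Gapdh rose from rank 3 to rank 2, and Ldha held rank 1 with both lengths, at 3815 ± 65.9 TPM per principal transcript.

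Several of these enzymes also share sequence with other genes, many of them processed pseudogenes, and fragments that mapped to more than one place were not counted. In Gapdh 78.0% of all 100-base windows of the principal transcript were found in a transcript of another gene, and 218 genes held a shared window of 50 bases or more. The share was 67.0% in Pgk1, 59.0% in Eno1 and 39.7% in Pgam1, which with Gapdh are 4 of the 5 payoff genes, and 9.82% in Pkm, the remaining one. With 50-base windows the share in Pkm was 34.4% and that in Ldha 17.1%. Their levels can therefore be underestimates, by an amount that these counts do not give. Named copies held few fragments over all libraries, among them 230 for Eno1b, 149 for Pgam1-ps2, 117 for Ldha-ps2 and 44 for Gapdh-ps14. Exons of other genes on the same strand covered 20.6% of Pgls, by Fam129c, and 15.3% of Pkm, by Gm49759, and fragments there were not assigned either.

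**Figure D4:**
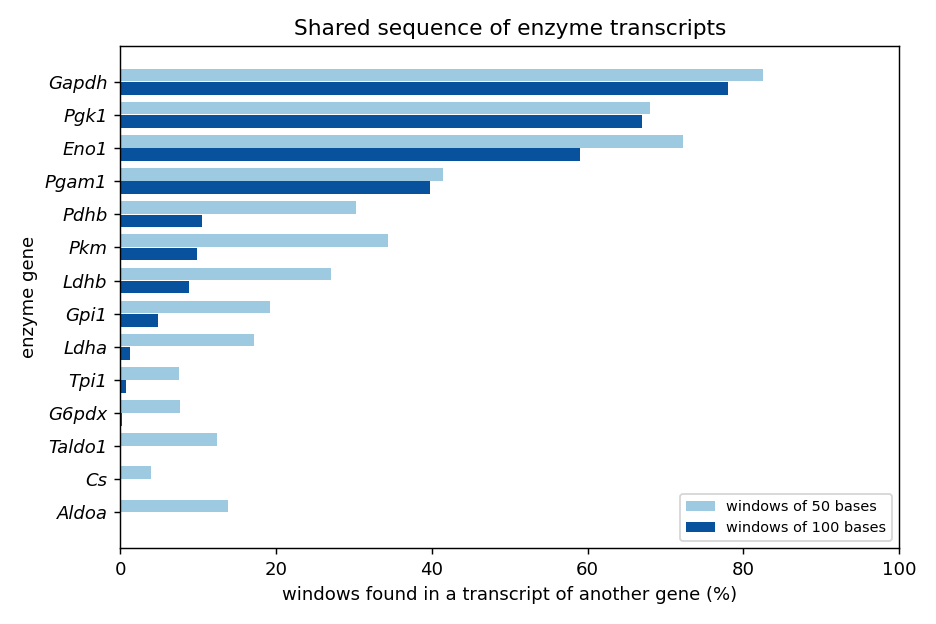
Share of windows of 50 and of 100 bases of each enzyme's principal transcript that occur in a transcript of another gene, in percent, for the 14 genes above 1% at 50 bases. Gapdh, Pgk1, Eno1 and Pgam1 have the longest bars at 100 bases, between 39.7% and 78.0%.

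The spread of the enzymes between the libraries was small, and near that of all genes at a like level. After scaling by trimmed mean of M values (TMM), which removes the pull of a few abundant genes, the median coefficient of variation was 5.17% over the 49 genes that passed the filter on low counts, from 1.33% for Ogdh to 20.2% for Aldoc. Hk3 did not pass it. For the 29 genes with at least 100 TPM it was 4.83%, beside 5.13% over all 2094 genes at that level. The test of whether a gene's spread exceeds that of genes of like abundance, edgeR's quasi-likelihood fit with Benjamini-Hochberg adjustment over 12396 genes, called 0 of the 49 at an adjusted p of 0.05, where it called 58 genes or 0.468% of all tested. At an unadjusted p of 0.05 it also called 0 of the 49, beside 5.33% of all tested, and DESeq2 marked 0 of them as dispersion outliers, beside 0.557%. The smallest p in the set was that of Eno1, 0.0642 (0.940 after edgeR's adjustment), then Mdh1 with 0.0900 and Gapdh with 0.102.

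What spread there was ran partly along the pathway. On the TMM scale 10 of the 14 tested enzymes of the preparatory and payoff phases were highest in replicate 4, beside 19.8% of all genes tested, namely Hk1, Hk2, Gpi1, Pfkl, Pfkm, Pfkp, Tpi1, Gapdh, Eno1 and Pkm. Of the same 14, 9 were lowest in replicate 2, beside 30.1% of all genes tested. Among the other 35 enzymes 8 were highest in replicate 4 and 10 lowest in replicate 2. The median difference of replicate 4 from replicate 2 was 0.15 on the log2 scale over the 14 and -0.02 over the 35. This order was noticed after the values were seen, was not tested, and goes with the deepest of the libraries.

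**Figure D5:**
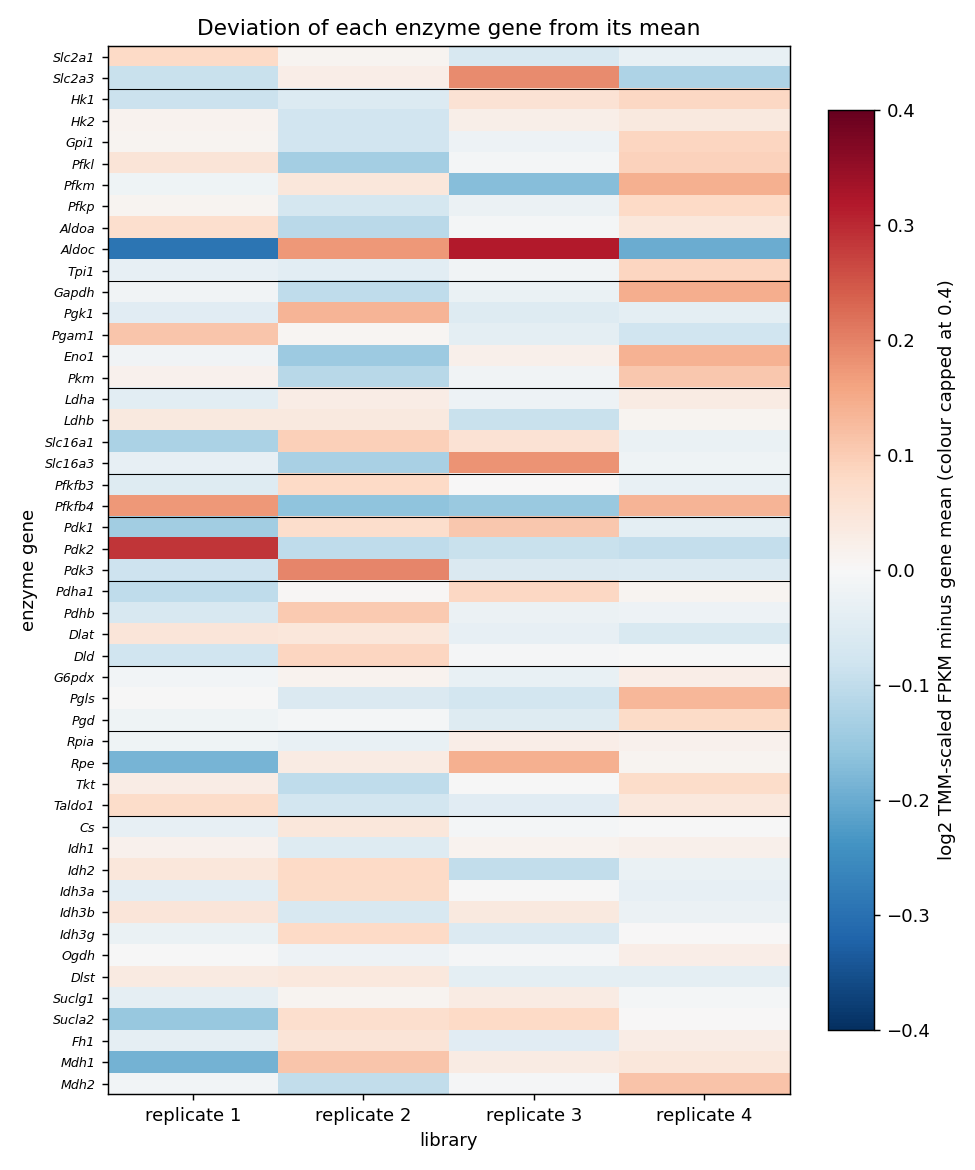
Log2 TMM-scaled level of 49 enzyme genes minus the gene's mean, with a row per gene in pathway order, a column per library and colour capped at 0.4. Of the 14 genes of the preparatory and payoff phases, 10 are highest in replicate 4 and 9 lowest in replicate 2.

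The enzymes were also read along the split of the libraries by sex-linked genes. Replicates 3 and 4 both lay above replicates 1 and 2 for 8 of the 49, Hk1, Hk2, Tpi1, Eno1, Slc16a3, Pdha1, Rpia and Mdh2, beside 14.6% of all genes tested. They both lay below for 6, Slc2a1, Pgam1, Ldhb, Dlat, Idh2 and Dlst, beside 14.7%. Both counts were near their background. Of the 5 X-linked enzymes, Pgk1, Pdk3, Pdha1, G6pdx and Idh3g, only Pdha1 was among those above, where 18.6% of X-linked genes tested were, and none was among those below, also 18.6%. Replicate 1 gave the lowest TPM of 36 of the 49, beside 52.0% of all genes tested, and 12 of 49 once TPM was taken over protein-coding genes alone, beside 33.3%.

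The genes around the pathway were read from a list of 59 paralogs and partners. Of these 36 (61%) had at least 1 TPM, beside 47.7% of protein-coding genes, and 25 (42.4%) at least 10 TPM, beside 36.2%. At least 100 TPM was reached by 8 (13.6%), beside 9.43%. A further 12 had 0 fragments in all libraries. A count of 0 allows up to 3 fragments per library, or 0.0322 to 0.0777 CPM (counts scaled to the library total). Those at 0 included Fbp1 of liver, Pklr of liver and red cells, and Pgk2, Gapdhs and Pdha2 of testis. In the TCA cycle the succinate dehydrogenase subunits had 484 ± 34.6 TPM (Sdhd), 356 ± 23.0 TPM (Sdha), 209 ± 18.1 TPM (Sdhb) and 97.8 ± 3.69 TPM (Sdhc). Aco1, the cytosolic aconitase, had 66.1 ± 1.99 TPM. Acly, which makes cytosolic acetyl-CoA from citrate, had 350.4 ± 23.1 TPM and the malic enzyme Me2 262 ± 19.0 TPM (SD, n = 4).

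Pyruvate enters mitochondria through a carrier of 2 subunits, whose genes stood at 60.03 ± 4.21 TPM (Mpc1) and 14.3 ± 2.23 TPM (Mpc2). Around pyruvate dehydrogenase, the E3-binding subunit Pdhx had 40.6 ± 3.19 TPM, the phosphatase Pdp2 21.2 ± 1.47 TPM and its regulatory subunit Pdpr 23.7 ± 3.28 TPM. The phosphatase Tigar, which opposes Pfkfb3, had 48.3 ± 3.08 TPM, and Txnip, which restrains glucose uptake, 40.8 ± 2.25 TPM. Further genes with at least 10 TPM were the phosphoglucomutases Pgm1 (61.8 TPM) and Pgm2 (42.6 TPM), the ADP-dependent glucokinase Adpgk (30.1 TPM), H6pd (28.3 TPM), Bpgm (25.9 TPM) and the transporter Slc2a8 (10.1 TPM). Of the 36 tested, edgeR's test called 0 at an adjusted p of 0.05 and 4 at an unadjusted p of 0.05, namely Slc2a6, Pdpr, Mpc2 and Ogdhl, which is 11.1% beside the 5.33% of all genes tested. At the adjusted threshold the share of all genes tested was 0.468%.

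Some members and relatives lie near each other in mm10. Tpi1 and Gapdh, consecutive actors in glycolysis, are 347 kb apart on chromosome 6, at chr6:124810586-124814296 and chr6:125161715-125166467, with 17 genes between them, and stood at 724 ± 46.1 and 1231 ± 103 TPM. Eno2, the neuronal enolase, lies 40.9 kb from Tpi1, and the testis gene Ldhc 5.58 kb from Ldha. G6pdx and Idh3g are 623 kb apart on the X chromosome.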

How the data were processed

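The deposited values are raw fragment counts per gene, made with featureCounts 1.4.6-p4 on mm10 with GENCODE mouse release 13, in strand setting 2 for fragments with both ends aligned, per the file headers. Which program aligned the reads is not stated in the labels or headers. Names were taken by gene identifier from GENCODE release 21 (50376 of 50600 matched, 224 did not). TPM was computed from the counts and the deposited exon union length. Ratios between genes used log2 of (count + 0.5) per base. Variation between libraries was tested with edgeR 4.0.16 (R 4.3.3; intercept-only quasi-likelihood fit, default filter on low counts, TMM, robust; upper tail of the quasi-dispersion, Benjamini-Hochberg over all genes tested), with DESeq2 1.42.0 as an alternative; the fit was tested on simulated data. Length alternatives used the APPRIS principal transcript of release 21 and its coding part. Windows of 50 and 100 bases were searched in all transcripts of that release. The floor of 3 counts covers counting error only. All 50 genes are named; related genes are named from 10 TPM, except those at 0 fragments and those below the unadjusted threshold, named after their values were seen. Some related genes are not reported here. The genes and lists were chosen with earlier results of these data known.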

Additional observations from a re-analysis of the deposited data

Results flagged for a closer look

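In 4 of the 76 sets of 4 library values checked, the highest or lowest library lay apart from the others by more than Dixon's 95% limit, which chance alone passes in about 1 in 20 sets. Ldha had 2560.3 TPM in replicate 1, beside 2868 to 2897 TPM in the others, and G6pdx had 106 TPM in replicate 1, beside 115 to 116 TPM. Pgam1 had 181.8 TPM in replicate 4, beside 193 to 194 TPM. The log2 ratio of Dlat to Dld was -0.48 in replicate 1 and lay between -0.67 and -0.64 in the others. Replicate 1 is the library with 35490.5 TPM of Gm42418, which takes a share of the TPM total. How much of the lower Ldha and G6pdx TPM goes with that share was not tested. On the TMM scale, Ldha had 816 FPKM in replicate 1, beside 828 to 858 FPKM in the others, and G6pdx had 33.7 FPKM, inside the 33.3 to 34.7 FPKM of the others.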

How the results depend on the processing

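Length decided most of what moved. With the principal transcript as length, an alternative chosen after seeing the data, the log2 ratio became -0.24 for Hk2/Hk1, 0.34 for Pdha1/Pdhb, -0.95 for G6pdx/Pgd, 1.13 for Rpia/Rpe and 0.20 for Ogdh/Dlst, each with the opposite sign of the exon union value. With the coding length, added likewise, the reversed values were 0.54 for Pdk1/Pdk3, 1.13 for Pdha1/Pdhb, -0.79 for G6pdx/Pgd, 0.16 for Rpia/Rpe, 0.89 for Idh3a/Idh3g and -0.043 for Sucla2/Suclg2. With no length at all they were 0.61 for Pdk1/Pdk3, 1.25 for Pdha1/Pdhb, -0.70 for G6pdx/Pgd, 0.57 for Rpia/Rpe, 0.78 for Idh3a/Idh3g and 0.78 for Ogdh/Dlst. The ratio of payoff to preparatory glycolysis moved to 0.73 (principal) and 0.68 (coding). That of glycolysis to the TCA genes of the set moved to 2.24 and 2.20. That of the non-oxidative to the oxidative branch moved to 1.18 (principal). FPKM on the TMM scale put 9 members at 100 or above in place of 29, since that unit has no fixed total over genes. At the adjusted threshold the count of varying members stayed at 0 under each alternative fit and with each library left out, while calls over all genes went from 36 to 110 beside the 58 reported. At an unadjusted p of 0.05, edgeR's test called Eno1 and Gapdh without replicate 1, and Rpe and Slc2a3 without replicate 2. It called Mdh1 without replicate 3 and also without replicate 4. In these fits 676 to 726 of all genes tested were called at that threshold. No paired analysis was possible because the libraries form a single group. The planned length from RefSeq proteins was not run. Depth limits Hk3, with 2 to 22 fragments per library.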
